A study of Caenorhabditis elegans with 3 samples.

Results

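The numbered collagens that lay lower in late young adult hermaphrodites of Caenorhabditis elegans than in a mixed reference are described here across 3 two-channel arrays. Channel 1 of every array carried reference RNA labelled as wild-type and mixed, and channel 2 carried RNA of late young adult hermaphrodites, the self-fertile sex, from preparation 1, 2 or 3. What was mixed in the reference is not given, so "lower" here means lower than a mixture of unknown make-up. The series has this 1 group of 3 samples, and the labels give no mutation, treatment, culture, age in hours or dye. Arrays 1, 2 and 3 are named after the preparation they carried. Members were genes with a numbered col symbol, named alone by their probe and measured on all 3 arrays, whose mean log2 ratio was -1 or less, that is, at least 2-fold lower in the adult. This gave 41 genes of 135 measured numbered collagens, or 30.4%. Among all 19264 features (genes, or probes without a gene name) with a value on each array, 8.8% had a mean of -1 or less. The ratios themselves chose the members, so the means below are a description, and no test on them is used as support.

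Collagens of the nematode cuticle are secreted by the epidermis, form triple helices through repeats of glycine followed by a pair of other residues, and are cross-linked into the exoskeleton. Larvae shed this exoskeleton and build a fresh one at each moult, and batches of collagen genes are switched on in sequence within every moulting cycle. The adult does not moult, and its cuticle holds some collagens that larvae do not make, while other collagens belong to larvae or to the dauer, the resistant larva formed under crowding or hunger. Most genes with a col number were named from their sequence alone, and for most members no stage or body part is stated here.

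Which channel was the numerator is not stated; the ratio is read as likely adult over reference since channel 2 held the adult RNA, and were it the other way round, every "lower" would read "higher". Of 8 genes that mark the adult hermaphrodite, 6 were higher and 0 lower by limma with Benjamini-Hochberg adjustment, against 19.6% and 18.8% of all features. Among them were rme-2, the yolk receptor gene of the oocyte, whose log2 ratio averaged 2.32 ± 0.28 (SD, with n = 3 here and below), and the adult cuticle collagen col-19 at 2.75 ± 0.50. The yolk protein genes vit-5 and vit-6 lay at 0.16 ± 0.47 and 0.26 ± 0.22 and did not pass. Array 1 correlated with arrays 2 and 3 at Pearson's r = 0.763 and 0.773 over all features, and arrays 2 and 3 with each other at 0.90; genes are not independent replicates. The labels date each array separately, so day and preparation cannot be told apart, and they do not say whether the preparations came from separate cultures, so p-values may measure technical spread. The RNA came from whole animals, in which fewer cells of a type and less RNA per cell cannot be told apart. The labels call the adult samples mRNA. A ratio compares proportions of the RNA put on the array and gives no amount per animal.

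The 41 collagens ran from a mean log2 ratio of -5.07 for col-36 to -1.06 for col-72, with a median of -1.92 against 0.04 over all features. All 41 had a ratio below 0 on each of the 3 arrays, as did 1651 of the 1654 other features chosen by the same mean and 30.1% of all features. Of the 41, 26 lay at -1 or less on every array, as did 955 of those 1654 and 5.09% of all features. By limma, fitted over all features with a threshold of 0.05 on the Benjamini-Hochberg adjusted p, all 41 passed as lower, against 18.8% of all features; the rule used the same ratios, so nothing is read from these counts, which the choice of members largely fixes. The limma count was 38 without array 2, where col-17, col-97 and col-127 did not pass. On array 1 the members ranged from -3.59 to -0.21 with a median of -1.28, on array 2 from -6.06 to -1.17 with a median of -2.83, and on array 3 from -5.57 to -0.47 with a median of -1.73. The size of the difference therefore depended on the array.

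**Figure D1:**
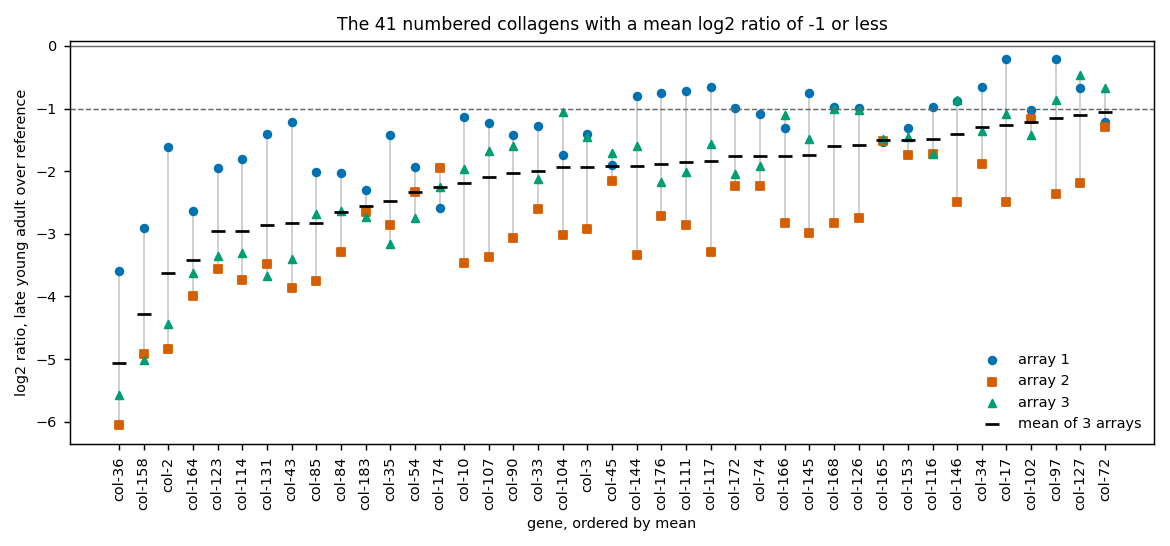
Log2 ratio of late young adult over reference (vertical axis) for each of the 41 numbered collagens (horizontal axis, ordered by mean). Circles, squares and triangles are arrays 1, 2 and 3, the black bar is their mean, the grey line joins the lowest to the highest array, and the dashed line marks -1; array 2 is the lowest array for 32 genes and array 1 the one nearest to 0 for 33.

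Of all features, col-36 had the lowest mean of the whole table. Among the lowest 193 features, which is 1% of them, were 12 of the 41 collagens and 181 of the 1654 other features at -1 or less. The members were chosen for low means, which raises such a share by itself. On arrays 1, 2 and 3, col-36 lay at -3.59, -6.06 and -5.57, a mean of -5.07 ± 1.31 or 33.7-fold lower. The next, col-158, lay at -2.90, -4.92 and -5.01, a mean of -4.28 ± 1.19 or 19.4-fold lower. Both were lowest on arrays 2 and 3, which lay close together, and less low on array 1. The same order of arrays was seen for col-2, a collagen known from the dauer cuticle, at -1.62, -4.84 and -4.44, a mean of -3.63 ± 1.75. This was the largest SD among the 41 genes, and it came from array 1, which lay 3.02 above the mean of the other arrays. For col-164 the values were -2.63, -3.99 and -3.63, a mean of -3.42 ± 0.70 or 10.7-fold lower. These 4 genes were the only members with a mean of -3 or less.

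Below them, 14 members had a mean between -3 and -2. In col-123 the arrays gave -1.95, -3.56 and -3.35, a mean of -2.95 ± 0.87. In col-114 they gave -1.80, -3.74 and -3.31, a mean of -2.95 ± 1.02. For col-131 the values were -1.40, -3.49 and -3.68, a mean of -2.86 ± 1.27. Each of the 3 was again highest on array 1, with arrays 2 and 3 within 0.5 of each other. For col-43 they were -1.22, -3.86 and -3.41, a mean of -2.83 ± 1.41, the second largest SD of the 41. The pair col-85 and col-84, which carry consecutive numbers but are not adjacent genes, had like profiles. Array values of col-85 were -2.01, -3.76 and -2.68, a mean of -2.82 ± 0.88, and those of col-84 were -2.03, -3.29 and -2.63, a mean of -2.65 ± 0.63. In both, array 2 stood below array 3. Values for col-183 were -2.30, -2.66 and -2.73, a mean of -2.56 ± 0.23, so that its 3 arrays nearly coincided. For col-35 they were -1.42, -2.86 and -3.17, a mean of -2.48 ± 0.93. The others of this range were col-54 at a mean of -2.33 ± 0.41, col-174 at -2.26 ± 0.32, col-10 at -2.19 ± 1.18, col-107 at -2.09 ± 1.13, col-90 at -2.03 ± 0.90 and col-33 at -2.0 ± 0.67. Of these, col-174 was the exception in having its lowest value, -2.59, on array 1.

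A further 15 members had a mean between -2 and -1.5. They were col-104 at -1.94 ± 1.00, col-3 at -1.93 ± 0.86, col-45 at -1.92 ± 0.22, col-144 at -1.91 ± 1.30, col-176 at -1.88 ± 1.01, col-111 at -1.86 ± 1.08, col-117 at -1.84 ± 1.34, col-172 at -1.76 ± 0.67, col-74 at -1.75 ± 0.59, col-166 at -1.75 ± 0.94, col-145 at -1.74 ± 1.14, col-168 at -1.60 ± 1.05, col-126 at -1.59 ± 1.00, col-165 at -1.51 ± 0.02 and col-153 at -1.5 ± 0.22. Means in this range were nearly equal, and most neighbours in the order differed by far less than their SD. The spread was not alike, however. The gene that varied least, col-165, lay at -1.53, -1.52 and -1.49, and col-45 lay at -1.90, -2.15 and -1.71. The values of col-153 were -1.31, -1.74 and -1.46. By contrast col-117, with a similar mean, lay at -0.66, -3.29 and -1.56, with array 2 far below the others.

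The remaining 8 members lay between -1.5 and -1. They were col-116 at -1.48 ± 0.44, col-146 at -1.41 ± 0.93, col-34 at -1.30 ± 0.62, col-17 at -1.26 ± 1.15, col-102 at -1.21 ± 0.21, col-97 at -1.15 ± 1.11, col-127 at -1.11 ± 0.94 and col-72 at -1.06 ± 0.34. Among them col-17 is known as a larval collagen whose expression ends at the last moult under the heterochronic factor LIN-29. It lay at -0.21 on array 1, -2.49 on array 2 and -1.09 on array 3. Its mean thus combined a value near 0 on array 1 with clearly lower ones on the other arrays. The values of col-97 were -0.21, -2.37 and -0.87, and those of col-127 were -0.67, -2.19 and -0.47. These 3 were the members with a value above -0.5 on any array. By contrast, col-102 was at least 2-fold lower on each array, at -1.03, -1.17 and -1.43.

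At the threshold itself the choice of members was fine-grained. The 4 genes nearest to it from inside were col-72, col-127, col-97 and col-102, and col-72 lay at -1.21, -1.30 and -0.67. Just outside came col-91 at -0.24, -2.20 and -0.55, with a mean that rounds to -1.0. Next were col-40 at -0.08, -1.92 and -0.78, a mean of -0.92, col-128 at -0.43, -1.28 and -1.04, a mean of -0.91, and col-58 at -0.23, -1.46 and -0.77, a mean of -0.82. Genes on either side of the threshold thus overlapped on every array, and the means of col-72 and col-91 differed by less than the SD of either. Of all 135 numbered collagens, 29 had a mean of 1 or more, as did 8.37% of all features, and 65 lay between -1 and 1.

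**Figure D2:**
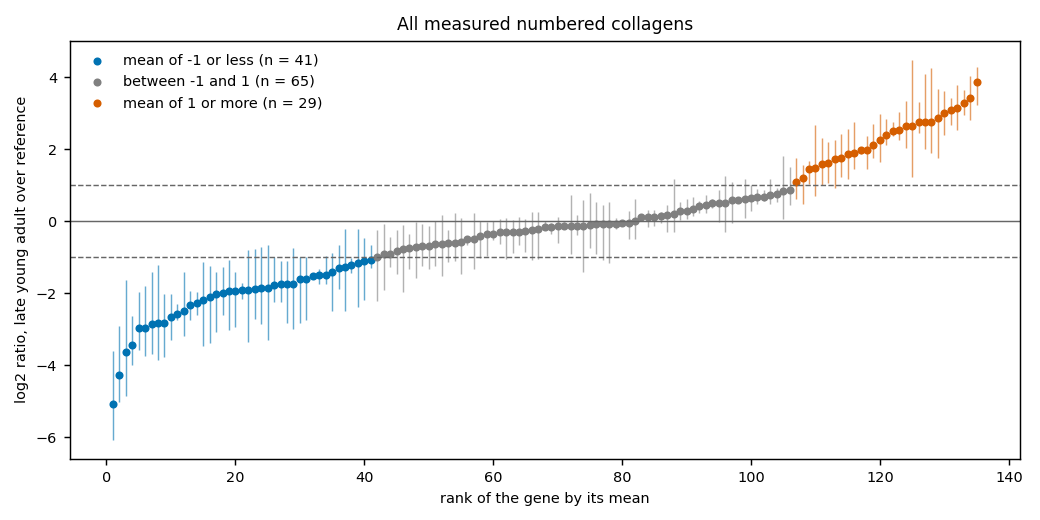
Mean log2 ratio (points) and range over the 3 arrays (lines) of the 135 measured numbered collagens, ordered by mean; blue marks the 41 genes at -1 or less, grey the 65 between -1 and 1 and orange the 29 at 1 or more. The lowest mean is -5.07 (col-36) and the highest 3.87 (col-101), and lines of genes on either side of -1 overlap.

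The 3 arrays ranked the members in part differently. Array 2 was the lowest array for 32 of the 41 (78.0%), array 3 for 7 and array 1 for 2. Among the 1654 other features with a mean of -1 or less, array 2 was lowest for 42.4% and array 3 for 40.8%. Other cuticle collagens were nearer to the members. Array 2 was lowest for 70.6% of 17 collagens named for their effect on body shape. It was lowest for 58.5% of the numbered collagens between -1 and 1 and 48.3% of those at 1 or more. Array 1 was nearest to 0 for 33 members (80.5%) against 68.7% of those other features, so the nearness of array 1 to 0 was shared with low genes at large. The median SD between arrays was 0.93 among the members, 0.37 among the other features at -1 or less and 0.27 over all features. It was 0.61 for numbered collagens at 1 or more, 0.50 for those between -1 and 1 and 0.41 for the body-shape collagens. In the range of -2 or less, where the ratios are of like size, it was 0.92 for the collagens and 0.50 for the others; between -2 and -1 it was 0.94 and 0.35. Spearman's rho across the 41 genes was 0.391 for arrays 1 and 2, 0.651 for arrays 1 and 3 and 0.602 for arrays 2 and 3, as a description of genes that share the same reference RNA and were chosen within a narrow span of means. Across all 135 numbered collagens it was 0.867, 0.904 and 0.932.

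Set by array 3 against array 2, the members showed several profiles. In 16 of the 41, the ratio on array 3 exceeded that on array 2 by over 1, as it did by 1 or more in 1.57% of the other features at -1 or less and 1.62% of all features. Other numbered collagens shared this gap: it was 1 or more in 17 of the 65 between -1 and 1 (26.2%) and in 11 of the 29 at 1 or more (37.9%), against 39.0% of the members. These 16 genes were col-85, col-10, col-107, col-90, col-104, col-3, col-144, col-117, col-166, col-145, col-168, col-126, col-146, col-17, col-97 and col-127. Their medians were -0.99 on array 1, -2.95 on array 2 and -1.28 on array 3, so arrays 1 and 3 were alike and array 2 stood apart. The difference was 1.08 for col-85 and between 1.40 and 1.97 for the other 15. In another 20 members arrays 2 and 3 lay within 0.5 of each other, with medians of -1.57, -2.63 and -2.74 on arrays 1, 2 and 3. The 8 genes with the lowest means, from col-36 to col-43, all belonged to these 20. In the last 5, col-84, col-176, col-111, col-34 and col-72, array 3 was above array 2 by 0.5 to 1. These profiles were drawn after the values were seen, and each rests on 1 array per preparation.

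Higher values on array 3 than on array 2 were not limited to the low collagens. Array 3 was above array 2 in 33 of the 41 members, in 49 of the 65 numbered collagens between -1 and 1 and in 29 of the 29 at 1 or more, against 51.7% of all features. The median difference was 0.52, 0.37 and 0.85 in these collagens and 0.01 over all features. Array 1 lay above the mean of arrays 2 and 3 in 38 of the 41 members, by a median of 1.08, and in 6 of the 29 numbered collagens at 1 or more, with a median of -0.43. For the other features at -1 or less the median was 0.45. Whether a property of the array or of the preparation moves with these values was not tested.

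**Figure D3:**
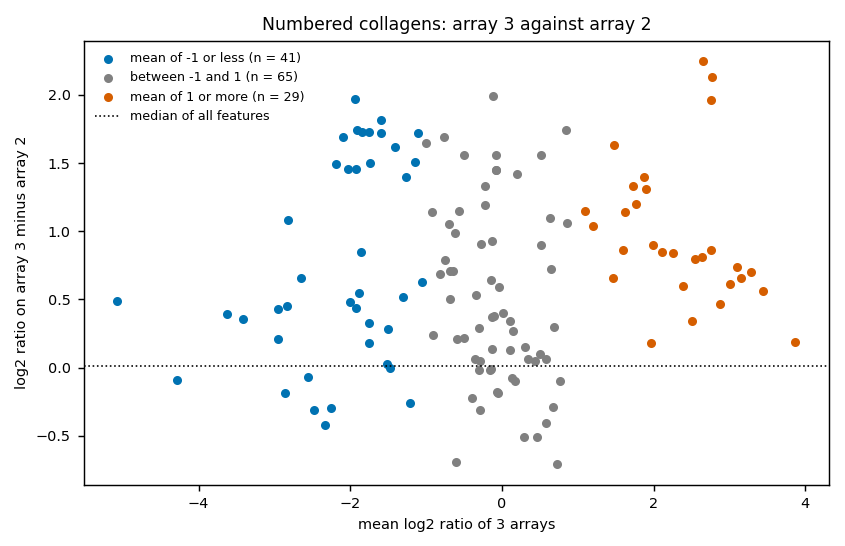
Log2 ratio on array 3 minus that on array 2 (vertical axis) against the mean log2 ratio of the 3 arrays (horizontal axis) for the 135 numbered collagens; blue, grey and orange mark means of -1 or less, between -1 and 1, and 1 or more, and the dotted line is the median of all features at 0.01. The blue points split into a band of 15 genes from 1.40 to 1.97 and a broader set at 1.08 and below.

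An array that took no part in the choice gives the same quantity without selection of single genes by that array's values. Numbered collagens were therefore chosen by a mean of -1 or less on 2 arrays and described on the array left out. Arrays 2 and 3 chose 49 genes, of which 47 lay below 0 on array 1 and 26 (53.1%) at -1 or less there, with a median of -1.09. All features chosen in that way lay at -1 or less on array 1 in 53.5% of cases, and 8.44% of all features did so with no choice. Arrays 1 and 3 chose 35 genes, and all 35 lay at -1 or less on array 2, with a median of -2.92; the share was 83.2% for all features so chosen and 10.4% with no choice. Arrays 1 and 2 chose 43 genes, of which 36 (83.7%) lay at -1 or less on array 3, with a median of -1.71, against 86.0% of all features so chosen and 10.8% with no choice. On arrays 1 and 3 the share of chosen collagens at -1 or less was thus close to that of all features so chosen. The share was above it on array 2, which was the lowest array for 62.2% of all numbered collagens. These shares are a description and are not used as support. The arrays share the reference RNA and the channel layout, so a difference owed to either would appear on each of them. Leaving out array 2 removed col-168, col-146, col-17, col-97, col-127 and col-72 from the set at -1 or less, and leaving out array 1 removed col-72.

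Some members were neighbours in the genome, here meaning adjacent protein-coding genes in the RefSeq gene table of the assembly WBcel235. Of the 41, 12 lay beside another cuticle collagen gene and 29 did not. Of 21 adjacent pairs of measured numbered collagens, both genes were members in 4, 1 gene was a member in another 4 and neither in 13. Lying beside another collagen gene was thus not particular to the members. The share of other numbered collagens that do so was not computed. A run of 3 adjacent genes was col-144, col-145 and col-10. On arrays 1, 2 and 3, col-144 lay at -0.80, -3.34 and -1.60, col-145 at -0.75, -2.99 and -1.49, and col-10 at -1.13, -3.46 and -1.97. Their profiles ran in parallel, with array 2 lowest and array 1 nearest to 0. That order was common among the members at large: array 2 was lowest for 32 of the 41 and array 1 nearest to 0 for 33. Nothing particular to neighbours is read from it. The adjacent genes col-126 and col-127 lay at -0.99, -2.75 and -1.02 and at -0.67, -2.19 and -0.47. The adjacent genes col-117 and col-3 lay at -0.66, -3.29 and -1.56 and at -1.40, -2.92 and -1.46. All 7 genes of these runs were among the 16 of the 41 members whose ratio was over 1 higher on array 3 than on array 2. The neighbours were picked for mention after their values were seen, and their likeness was not tested. Adjacent collagen genes can be near-identical copies and then share signal on their probes, which could not be checked without sequences, so their single values are uncertain. Shared signal could not be checked for members that are not adjacent either, such as col-84 and col-85.

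Other members sat beside a collagen that was not a member. The larval collagen col-17, at -1.26 ± 1.15, was adjacent to col-20 at 3.00 ± 0.60. The gene col-183, at -2.56 ± 0.23, was adjacent to col-184 at 1.97 ± 0.10, and neither gene's arrays came near the other's. At col-104, with -1.94 ± 1.00, the neighbour col-105 lay at 0.68 ± 0.18, and their arrays did not overlap. At col-168, with -1.60 ± 1.05, the neighbour col-167 lay at -0.64 ± 0.62, and the arrays of col-168 and col-167 overlapped. The body-shape collagen dpy-13, at -1.12 ± 0.96, lay beside col-34 at -1.30 ± 0.62, and their means differed by less than either SD. The numbered collagens with the highest means were col-101 at 3.87 ± 0.55, col-143 at 3.44 ± 0.62, col-8 at 3.28 ± 0.35, col-80 at 3.15 ± 0.62 and col-140 at 3.10 ± 0.38, and none of these 5 was next to a member.

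Collagens that are known from moulting larvae but are not members behaved differently from one another. The genes col-12 and col-13, a pair of closely related collagens made at larval moults, lay at -0.04, -0.85 and 0.06 and at 0.25, -1.05 and 0.14. Both were within about 0.25 of 0 on arrays 1 and 3 and lower only on array 2. Of 17 measured cuticle collagens named for their effect on body shape, 12 were lower and 0 higher by limma, against 18.8% and 19.6% of all features, with a median of -1.80. Their leading genes were rol-8 at -4.82 ± 1.47, rol-6 at -3.76 ± 0.85 and sqt-2 at -2.68 ± 0.62, whose mutants roll or are squat. Among these 17, array 3 was above array 2 in 13 (76.5%, against 80.5% of the members), with a median difference of 0.47 against 0.52, and by 1 or more in 1 gene, against 16 of the 41 members. The 3 genes listed here as adult cuticle collagens, which larvae do not make, were all higher. Beside col-19, already given, they were col-62 at 1.90 ± 0.75 and col-7 at 1.59 ± 0.66. The list was chosen with earlier results known, so this covers these 3 genes and not adult cuticle collagens at large. Whether collagens of the body-shape list also belong to the adult cuticle was not examined. Among those, limma called neither bli-1 (0.38 ± 0.15) nor bli-2 (0.17 ± 0.24) higher or lower. The basement membrane collagens, which are not part of the cuticle, were split: the type IV chains emb-9 and let-2 were higher at 1.42 ± 0.62 and 1.10 ± 0.49, and the type XVIII collagen cle-1 was lower at -0.82 ± 0.19.

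Genes that build and shed the cuticle were compared in the same fit, in which 18.8% of all features were called lower and 19.6% higher. Of 12 moulting genes, 10 were lower and 0 higher, with a median of -1.60. They were led by mlt-8 at -2.66 ± 0.07 and by the apical matrix genes noah-1 and noah-2 at -2.41 ± 0.41 and -2.19 ± 0.42. Their array medians were -1.04, -1.78 and -2.06, and array 3 was above array 2 in 3 of the 12, against 33 of the 41 members. Of 9 genes of collagen folding and processing, 2 were lower and 3 higher, with a median of 0.25; the share called lower was near that of all features. The prolyl 4-hydroxylase subunit gene phy-2, whose enzyme hydroxylates collagen chains, lay at -2.06 ± 0.35, and its partner dpy-18 lay at -0.59 ± 0.46 and did not pass (limma adjusted p = 0.05 after rounding). The protein disulphide isomerase gene pdi-1 was higher at 1.17 ± 0.23, and the procollagen protease gene dpy-31 lower at -0.77 ± 0.19. Of 4 genes of cuticle cross-linking, tsp-15, a tetraspanin that works with the dual oxidase BLI-3, was lower at -0.61 ± 0.14 and 0 were higher. It did not pass without array 3, and without array 1 a count of 2 was reached. Of 12 epidermal and timing regulators, 6 were lower and 2 higher, with a median of -0.63; the share called higher was near that of all features. The higher ones were lin-41 at 1.70 ± 0.47, which acts in the heterochronic pathway and in oocytes, and nhr-23, a nuclear receptor of the moulting cycle, at 1.14 ± 0.16. The lower ones were led by bed-3, a transcription factor gene of the moulting cycle, at -1.18 ± 0.30.

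**Figure D4:**
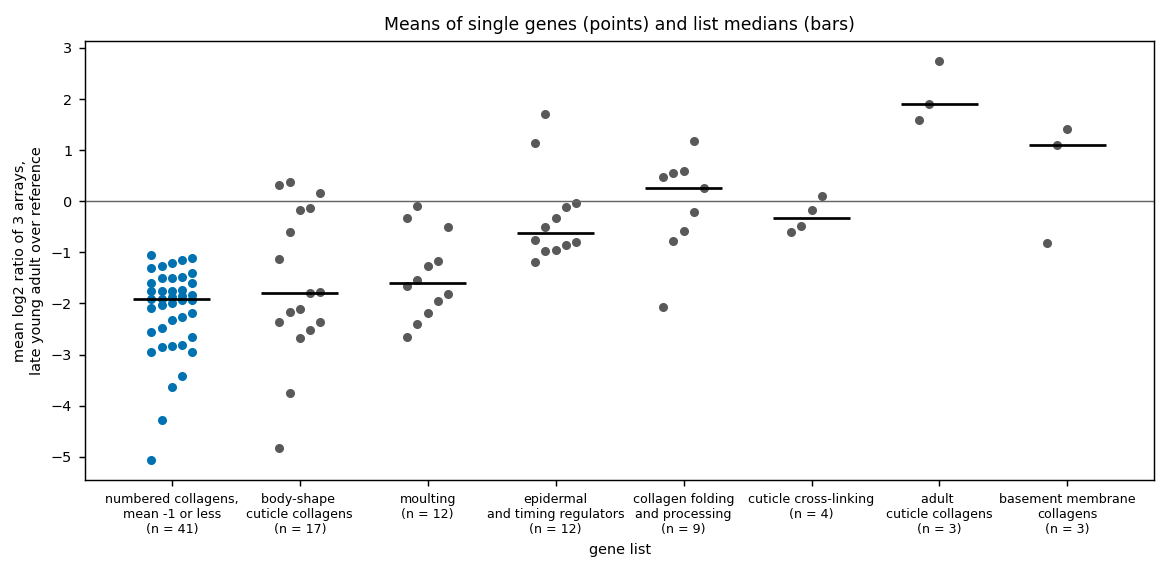
Mean log2 ratio over the 3 arrays of each gene (points) and the median of each list (bars) for the 41 numbered collagens, which were chosen to lie at -1 or less, and for the 7 lists compared with them. The body-shape collagens and moulting genes have medians of -1.80 and -1.60, and the adult cuticle collagens one of 1.90.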

How the data were processed

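Per the labels, each of 3 arrays compared adult RNA (channel 2) with a mixed reference (channel 1). The reference signal enters each ratio, so its spread between arrays cannot be told from that of the adult RNA. An effect of the channel cannot be told from a difference. The authors deposited log2 ratios for 20000 probes, with array medians of 0.05, 0.01 and 0.02. The scale was read from the values: taken as exponents of 2, 99.98% gave multiples of 0.001 (within 0.01 of a step). The authors' background correction, normalization and filters are not given in the sources used here, and no spot intensities were used, so faint spots cannot be told from bright ones and the number of arrays limits the precision. Platform annotation, updated by gene identifier through the RefSeq table of WBcel235 (15569 of 15655 probes with 1 symbol), named the genes; probes of 1 symbol were averaged, although each of the 135 numbered collagens had 1 probe. Of 159 numbered collagens in the RefSeq table, those without a probe of their own were not analysed here. The mean ratio of each feature was set against 0 by limma 3.58.1 (R 4.3.3), two-sided, over 19264 features with Benjamini-Hochberg adjustment, after a check on simulated data. Alternatives left out each array, centred or scaled the arrays, dropped the moderation of variances and moved the threshold. Genes named were, by rule, all members with their means, with values on each array for the 12 lowest, those nearest to the threshold, the most and least variable and those above -0.5 on any array, and the leading genes of each list; neighbours were added after their values were seen. Protein and promoter comparisons planned at the start were not made. The members and lists were chosen with earlier results of these data known.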

Additional observations from a re-analysis of the deposited data

How the results depend on the processing

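With 1 array left out, the number of numbered collagens at -1 or less ran from 35 to 49, and the median of the 41 members from -2.33 to -1.5; both centring and scaling gave 42 genes and medians of -1.95 and -1.97. Requiring -1 or less on every array left 26 genes, and thresholds of -1.5 and -0.5 gave 33 and 57. No member changed sign under these settings. With an array left out this was fixed in advance, since all 41 lay below 0 on every array. On the array not used to choose them, the chosen collagens had medians from -2.92 to -1.09. A one-sample test without moderation called 0 features and 0 numbered collagens in either direction after adjustment (smallest adjusted p = 0.0682), with 6188 features and 47 numbered collagens at an unadjusted p under 0.05, against 8985 and 97 by limma; that test has only the 3 values of each gene. Adding a 2-fold minimum lowered the calls over all features from 3624 to 1693 lower and from 3769 to 1606 higher, and those among numbered collagens from 50 to 41 and from 37 to 29. The 41 and 29 are the sets at -1 or less and at 1 or more. Limma had called all of both, so these counts follow from the threshold. Without 1 array the numbered collagens called lower ran from 40 to 57 and those called higher from 32 to 38, and the cross-linking genes called lower ran from 0 to 2. No paired analysis was possible because the series has 1 group and so no replicate numbers shared between groups, while each ratio already sets adult against reference RNA on its own array. The cause of these changes was not tested.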
